A study of Rattus norvegicus with 4 samples.

Results

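Small RNA recovered by immunoprecipitation of Piwil2 (RNA immunoprecipitation, RIP) from the hippocampal CA1 region of Sham rats was compared with small RNA recovered by an IgG control. Each side is 1 of the 4 libraries of the series, so n = 1 against n = 1. Members were the sequences with at least 10 tags in either of the 2 libraries, a blank cell being taken as 0, and 1919 of the 3129 sequences in the raw table met that rule. The animals were male Wistar rats of 7 to 8 weeks. The other 2 Piwil2 libraries are named tGCI26h (26 h) and HPC0h (0 h). Per the design text each group had 3 replicates; the tables used here hold 1 library of each, and neither pooling nor the animals behind the IgG library are given in the sources used here. No allele, drug or antibody clone is named for either library.

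Piwil2 is a member of the PIWI branch of the Argonaute proteins. In the germline, PIWI proteins hold piRNAs, small RNAs somewhat longer than microRNAs, and silence transposons. The amount of piRNA in brain is debated, because fragments of tRNA, rRNA and snRNA of similar length can be listed under piRNA names. A control precipitation shows which RNAs are recovered without the specific antibody.

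The listed sequences held 159215 tags in Sham and 668857 in IgG. CPM were taken over these totals. Sham was thus the shallower library, and 1 tag there is worth 6.28 CPM. Ratios of CPM carry exact Clopper-Pearson 95% intervals on the share of the summed count. These cover counting error only, since PCR copies are not separate molecules, and nothing here measures the spread between animals. A sequence was called higher or lower where the ratio was at least 2 either way and the interval excluded 1. Ratios compare shares of a library and not amounts of RNA. The neuronal RNA BC1, with the ID-like repeats that resemble it, was present at 42 tags in Sham and 156 in IgG; protein-coding markers of tissue or cell type are not measured by these tables.

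The counts of overlapping sequences are not separate. In Sham, 9015 pairs of listed sequences had 1 lying wholly inside the other, and in all 9015 the inner sequence had no more tags than the outer. The same held for all 10979 such pairs in IgG. The difference between an outer and an inner count was therefore read as the tags that fit the longer sequence and not the shorter one, and is called added tags below. Sums over overlapping sequences, the totals behind CPM included, hold many tags repeatedly, so no interval is given for them. The 1074 sequences that lay inside no other held 111162 tags in Sham and 443407 in IgG, and scaling by these totals would multiply every ratio by 0.95.

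The sequences that carry the contrast follow, each 5′ to 3′ as listed in the deposited table. RNA names were given from general knowledge of conserved RNAs and are provisional, except for the miRNAs, which match RefSeq. Positions count from the first base of the stretch that overlapping sequences span together. The first 5 lines are fragments of U2 snRNA, the spliceosomal RNA that pairs with the branch point of introns. They begin at bases 21 to 25 and share an end at base 59, and capitals mark the last 6 bases. The sequence novel_3541_x521 is from the same stretch but ends at base 55, novel_17277_x119 ends at base 46, and novel_9040_x213 is the next U2 stretch, whose first 4 bases are the last 4 of the U2 ends.
novel_5060_x368: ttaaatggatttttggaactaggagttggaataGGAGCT
novel_4823_x387: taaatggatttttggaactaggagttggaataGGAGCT
novel_4560_x409: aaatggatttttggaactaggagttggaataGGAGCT
novel_6926_x273: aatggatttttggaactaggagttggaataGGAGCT
novel_7164_x265: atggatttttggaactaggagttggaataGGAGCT
novel_3541_x521: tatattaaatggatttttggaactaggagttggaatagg
novel_17277_x119: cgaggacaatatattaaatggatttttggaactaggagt
novel_9040_x213: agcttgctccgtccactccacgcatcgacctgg

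Fragments of tRNA that the results below turn on are shown next, with no part in capitals. The first 3 lines are from the 5′ part of tRNA-Gly, tRNA-Val and tRNA-His, the fourth is the abundant 5′ part of tRNA-Glu, and the last is from the 3′ part of tRNA-Asp.
rno_piR_005567: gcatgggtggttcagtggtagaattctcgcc
rno_piR_005901: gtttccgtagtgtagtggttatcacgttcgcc
novel_12093_x163: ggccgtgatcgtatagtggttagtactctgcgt
novel_2845_x640: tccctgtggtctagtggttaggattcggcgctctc
novel_3644_x506: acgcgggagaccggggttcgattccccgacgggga

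The miRNAs that were lower in Sham are shown with the seed (bases 2 to 8), the part that pairs with targets, in capitals. The sequence novel_4906_x381 is rno-let-7b-5p without its last base, and rno_piR_015914 is rno-miR-672-5p under a piRNA name. In RefSeq's GRCr8 build the mature forms lie at chr7:118684044-118684065 (plus strand, Mirlet7b) and chrX:73192351-73192373 (minus strand, Mir672). Their seeds differ, so they were not grouped.
novel_4906_x381: tGAGGTAGtaggttgtgtggt
rno_piR_015914: tGAGGTTGgtgtactgtgtgtga

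Across the 1919 measured sequences, 239 were higher in Sham and 548 lower, which is 12.5% and 28.6% of those measured. The higher sequences held 19.6% of Sham tags and 3.91% of IgG tags, and the lower ones 3.22% and 14.1%. The median log2 ratio, with 0.5 tags added to each count, was -0.62, and the quartiles were -2.06 and 0.38. A sequence blank in Sham could be called lower from 18 IgG tags on, and 239 of the 548 lower sequences were blank in Sham. Among the 930 sequences with at least 10 tags in both libraries, 122 were lower. Of the other measured sequences, 35 had fewer than 10 tags in IgG and passed by their Sham count alone, so that all 35 were higher. The remaining 954 had fewer than 10 in Sham, and 426 of them were lower. Of the 239 higher sequences, 204 had at least 10 tags in IgG. How many of these 204 had fewer than 10 in Sham was not counted.

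A blank cell is not an established 0. No listed Sham or IgG count was below 2, and blanks often had a value in the second deposited table, so no fold is given for a sequence that is blank on one side. Of the 239 lower sequences blank in Sham, 198 had a Sham value in the authors' normalized table. For 195 of these the normalized ratio was below 1, and for 140 it was 0.5 or less. All 239 higher sequences had a normalized ratio above 1, and for 219 it was 2 or more. At the count threshold, the 54 sequences whose larger count was 10 had a median of 1 tag in Sham and 10 in IgG, and the 50 whose larger count was 9 had medians of 0 and 9.

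**Figure D1:**
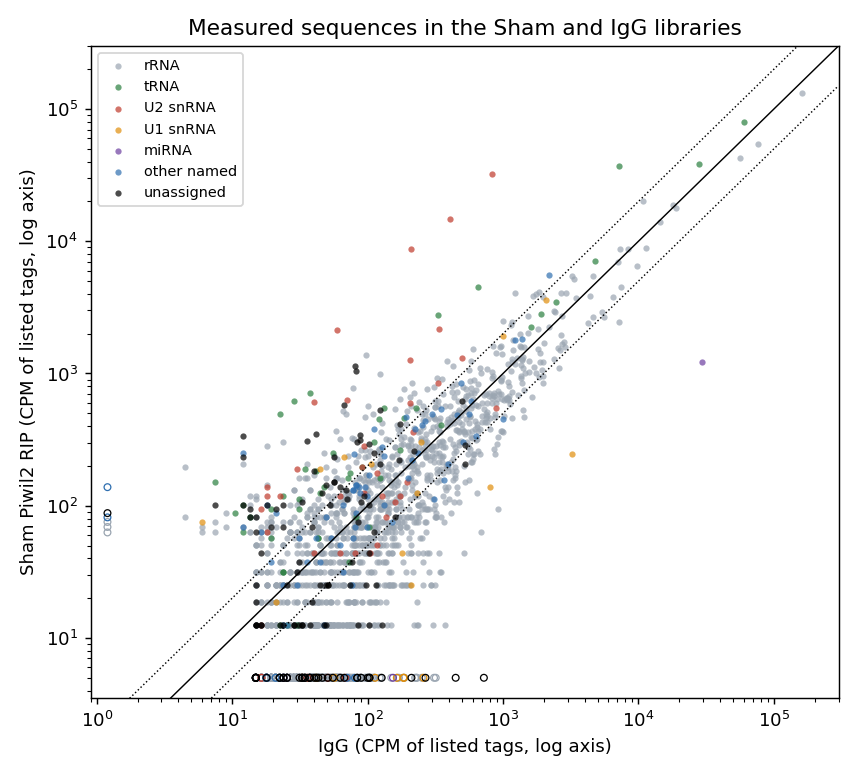
Sham CPM (y axis, log scale) against IgG CPM (x axis, log scale) for the 1919 measured sequences, coloured by RNA. Open circles at the lower and left edges are blank in Sham (386) or in IgG (6) and have no position on that axis. The solid line is equality and the dotted lines a ratio of 2; 4 U2 fragments and the tRNA-Gly fragment stand far above the lines, and let-7b far below.

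**Figure D2:**
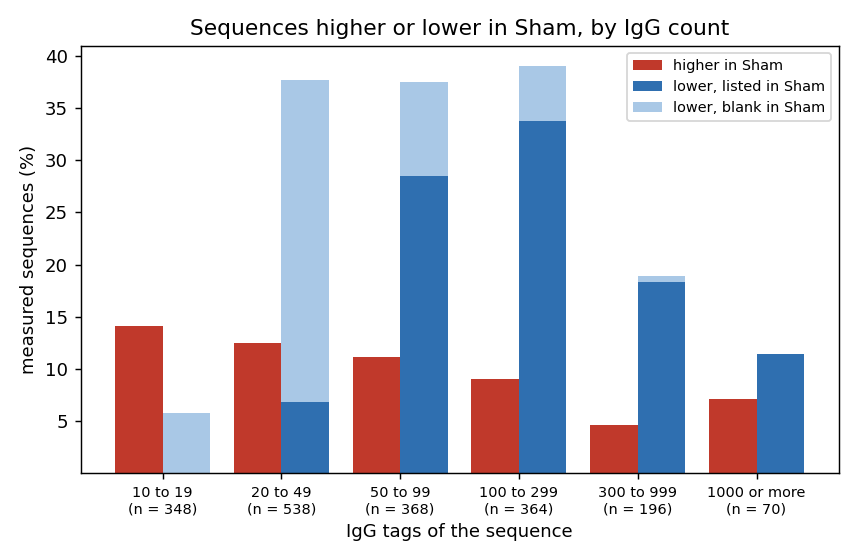
Share of measured sequences that were higher (red) or lower (blue, pale where blank in Sham) against their IgG count. The lower share is 37.7% at 20 to 49 IgG tags, where 166 of 203 lower sequences were blank in Sham, and 11.4% at 1000 or more.

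Ranked by the interval bound nearest to a ratio of 1, the 4 highest sequences were U2 fragments that end at base 59. The 39-base sequence novel_5060_x368 had 5131 tags in Sham and 557 in IgG, a ratio of 38.7 (95% interval 35.5 to 42.3). Since the other 4 lie inside it, its count already holds theirs. Shortening the 5′ end by 1 base at a time left 2328 and 270 tags in novel_4823_x387, then 1402 and 139 in novel_4560_x409, then 342 and 40 in novel_6926_x273, and last 97 and 27 in novel_7164_x265. Sham exceeded IgG at every 5′ end. The tags added at each start gave ratios of 41.03 at base 21 (36.3 to 46.5), 29.7 at base 22 (24.7 to 35.9), 44.98 at base 23 (36.6 to 55.8) and 79.2 at base 24 (45.4 to 151). The shortest form, from base 25, had the lowest ratio of the cluster, 15.1 (9.77 to 24.1).

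The 3′ end separated these fragments from their neighbours. The sequence that starts at the same base 21 but stops at base 56, novel_4273_x436, was blank in Sham and had 46 tags in IgG. From base 22, novel_14174_x142 stops at base 57 and had 8 tags in Sham and 78 in IgG, lower at 0.43 (0.18 to 0.89), and 0.499 with DESeq2's size factors, where the interval held 1 (0.21 to 1.03). The authors' normalized table put that sequence at a ratio of 0.74, and novel_4273_x436 at 0.76, both also below 1. Across starts 21 to 25, the 10 sequences with an earlier end held 8 listed tags in Sham and 238 in IgG. Of the 7 of these that were measured, 5 were lower and none higher, beside 28.6% and 12.5% of all measured sequences. All 7 had fewer than 10 tags in Sham and passed by their IgG count alone. Those blank in Sham could not be higher. Many of them lie inside each other, so their tags repeat.

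Upstream, U2 fragments were higher by less. The pair ending at base 46 had 343 and 227 tags in novel_17277_x119, a ratio of 6.35 (5.35 to 7.54), and 202 and 138 in novel_14772_x137, a ratio of 6.15 (4.93 to 7.69). All 6 measured sequences starting at base 8 or 9 were higher, between 5.32 and 7.70. Ratios were lower toward the middle. The sequence novel_11728_x168 (bases 11 to 49) had 209 and 333 tags, a ratio of 2.64, and novel_3541_x521 (bases 17 to 55) had 88 and 591, a ratio of 0.63 (0.49 to 0.78). Over the whole stretch 16 of 34 measured sequences were higher and 6 lower, beside 12.5% and 28.6% of all measured sequences. The next stretch had 100 tags of novel_9040_x213 in Sham and 47 in IgG, a ratio of 8.94 (6.26 to 12.9). Another U2 family, led by novel_4221_x440 with 19 and 117 tags, gave a ratio of 0.68 with an interval that held 1 (0.40 to 1.11).

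The excess of novel_5060_x368 over IgG was found in the Sham library and not in the other Piwil2 libraries, which share the same IgG library. Counts of novel_5060_x368 were 10 in tGCI26h and 265 in HPC0h. Over IgG these are ratios of 0.054 (0.026 to 0.10) and 0.38 (0.33 to 0.44). Sham was 717-fold above tGCI26h (390 to 1496) and 101-fold above HPC0h (89.3 to 115). A share below IgG in HPC0h was not seen for every U2 end fragment. There, novel_6926_x273 had 69 of 830634 listed tags, a larger share than its 40 of 668857 in IgG, with no interval given. Tags added at its start, base 24, numbered 38 in HPC0h and 13 in IgG. In tGCI26h it had 3 tags.

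U1 snRNA, which recognises the 5′ splice site, showed opposite directions within 1 stretch of 53 bases. The 37-base novel_9449_x204 (bases 6 to 42) had 39 tags in Sham and 2146 in IgG, 13.1-fold lower (9.55 to 18.5). A few bases downstream, novel_426_x3250 (bases 14 to 52) had 573 and 1399, a ratio of 1.72 (1.56 to 1.898). Both sequences are given here to show how much they share, and capitals mark nothing.
novel_9449_x204: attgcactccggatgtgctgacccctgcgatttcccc
novel_426_x3250: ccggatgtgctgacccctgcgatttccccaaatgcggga
Of the 15 measured sequences in this family, 7 were lower and 3 higher, beside 28.6% and 12.5% of all measured sequences. All 7 lower ones started between bases 1 and 11, and all 3 higher ones between bases 12 and 15. A second U1 family held 6 lower sequences among 7 measured, for example novel_14652_x138, blank in Sham against 173 IgG tags. In tGCI26h and HPC0h, novel_426_x3250 had 23 and 34 tags, below IgG at 0.049 and 0.020, and Sham exceeded them 34.8-fold (22.97 to 55.4) and 87.9-fold (62.2 to 128).

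**Figure D3:**
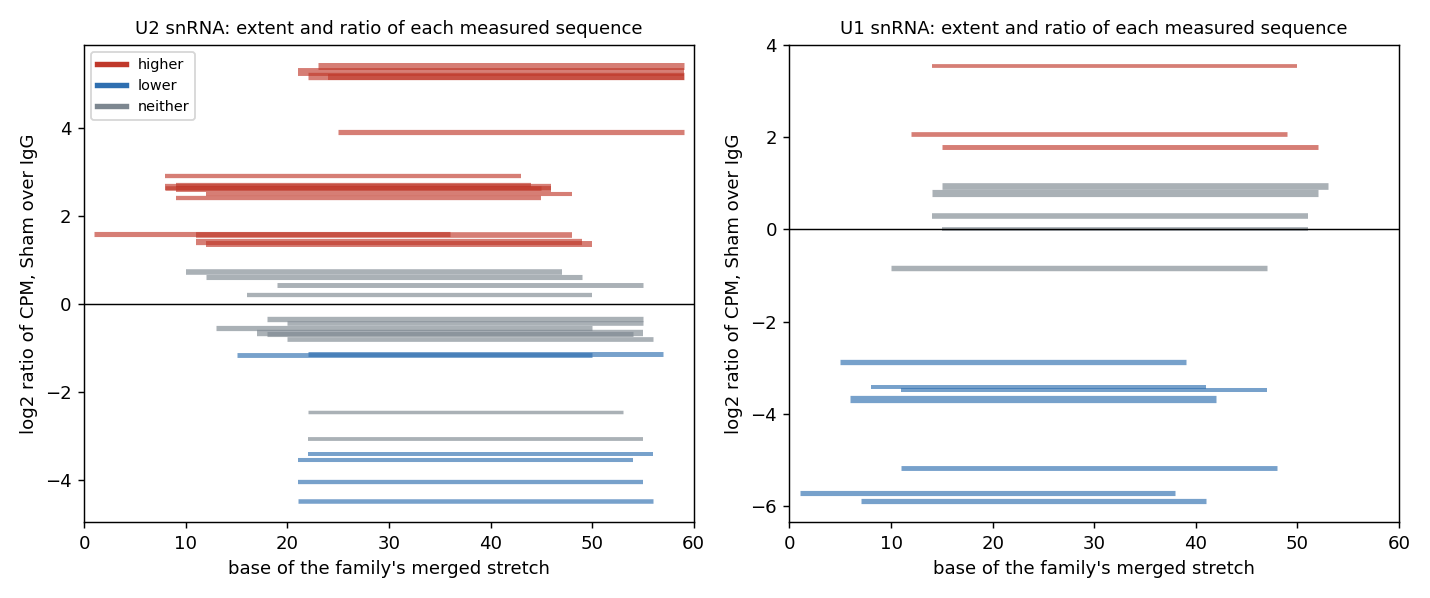
Each bar spans 1 measured sequence along its family's merged stretch (x axis, bases), at its log2 ratio of Sham over IgG with 0.5 tags added (y axis); thicker bars hold more tags. In U2 (left) the 5 bars reaching base 59 lie at the top, above sequences with the same starts that end earlier, and in U1 (right) sequences with early starts lie below 0.

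Fragments of tRNA formed the broadest group that was higher. Of 79 listed cytosolic tRNA sequences in 9 isotypes, 48 were measured, of which 29 were higher and none lower, beside 12.5% and 28.6% of all measured sequences. They fall into 15 overlapping families, so they are not independent, and 5 of the 48 passed by their Sham count alone. Their median log2 ratio was 1.38, against -0.62 over all measured sequences.

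The 5′ tRNA-Gly fragment rno_piR_005567 had the most tags of any higher sequence, 5888 in Sham and 4805 in IgG, a ratio of 5.15 (4.95 to 5.35). It had 3201 tags in tGCI26h and 5566 in HPC0h, which over IgG are ratios of 2.00 (1.91 to 2.09) and 0.93 (0.90 to 0.97). The 5′ tRNA-Val fragment rno_piR_005901 had 444 and 221 tags, a ratio of 8.44 (7.17 to 9.96), with ratios of 5.35 in tGCI26h and 1.41 in HPC0h. Both stood higher over IgG in Sham than in either of the other Piwil2 libraries.

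The tRNA-His fragment novel_12093_x163 had 722 tags in Sham and 436 in IgG, a ratio of 6.96 (6.17 to 7.85). Its ratio differed by 3′ end. Tags that stop by base 30, in novel_4954_x378, numbered 6 and 49, a ratio of 0.51 with an interval that held 1 (0.18 to 1.202). Those added by extending to base 31, in novel_11248_x174, numbered 81 and 104, a ratio of 3.27 (2.42 to 4.42). Those added by reaching base 33 numbered 635 and 283, a ratio of 9.43 (8.18 to 10.9). With 114 and 460 tags, tGCI26h and HPC0h stood slightly below IgG, at 0.79 (0.63 to 0.97) and 0.85 (0.74 to 0.97).

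Fragments from the 3′ part of tRNA-Asp had few tags and high ratios. The sequence novel_19801_x107 had 113 in Sham and 25 in IgG, a ratio of 18.99 (12.2 to 30.6), and novel_3644_x506, which lies inside it, had 98 and 19, a ratio of 21.7 (13.2 to 37.5). The ratio again differed by 3′ end. The 4 measured sequences that reach base 40 had ratios of 18.99 to 21.8, whereas novel_14794_x136, which stops at base 39, had 19 and 16 tags, a ratio of 4.99 (2.43 to 10.4). Stopping at base 38, novel_7169_x265 had 5 and 16 tags, and its ratio of 1.31 had an interval that held 1. In tGCI26h and HPC0h, novel_3644_x506 had 114 and 80 tags, ratios of 18.04 and 3.39 over IgG.

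The most abundant tRNA fragments moved little. The 5′ tRNA-Glu sequence novel_2845_x640 had 12597 tags in Sham and 40303 in IgG, a ratio of 1.31 (1.29 to 1.34), and none of the 6 measured sequences of its family reached a ratio of 2. A second 5′ tRNA-Glu family was higher for 6 of its 9 measured sequences, and a family from the 3′ part of tRNA-Glu for all 3, as in novel_6674_x282 with 30 and 23 tags, a ratio of 5.48 (3.08 to 9.88). For tRNA-Lys, tRNA-Gln and the initiator tRNA-Met, 2 of 3, 2 of 4 and 1 of 1 were higher. Neither of 2 tRNA-Pro sequences was.

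Mitochondrial tRNA-Gln gave 2 of the sharpest differences between neighbours. The 38-base novel_5554_x336 (bases 3 to 40) had 22 tags in Sham and was blank in IgG, with a ratio of 118 in the authors' normalized table, where its IgG value was 1. Yet novel_1504_x1146, 1 base longer at the 5′ end, had 135 and 325 tags, a ratio of 1.75, and novel_3814_x485, 1 base longer at the 3′ end, had 99 and 388, a ratio of 1.07. A sequence shifted upstream, novel_4321_x431 (bases 1 to 38), had 40 and 8 tags, a ratio of 21.005 (9.70 to 51.95). Like novel_5554_x336, it had fewer than 10 IgG tags and passed by its Sham count alone, so both could only be higher. Printed below are novel_5554_x336 and novel_4321_x431, which are offset from each other at both ends, with no part in capitals.
novel_5554_x336: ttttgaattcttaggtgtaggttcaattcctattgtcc
novel_4321_x431: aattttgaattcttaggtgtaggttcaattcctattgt

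Y1 RNA, a small cytoplasmic RNA bound by Ro60, was represented by fragments of its 5′ end that share base 1. The longest, novel_14710_x137, had 878 tags in Sham and 1458 in IgG, a ratio of 2.53 (2.32 to 2.75). The shorter members, nested inside it, all had ratios below 2, from 1.31 for novel_2270_x795 (to base 37) to 1.76 for novel_8228_x234 (to base 29). Tags added by extending from base 37 to base 39 numbered 588 in Sham and 531 in IgG, a ratio of 4.65 (4.13 to 5.24). Tags added at base 37 went the other way, 6 and 102, a ratio of 0.25 (0.089 to 0.56). From the 3′ part of Y1, novel_20725_x103 had 13 tags in Sham and was blank in IgG. Its ratio in the authors' normalized table was 44.5, where its IgG value was 2. It passed by its Sham count alone and could only be higher. Of the 10 measured sequences of that family, 9 were neither higher nor lower.

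**Figure D4:**
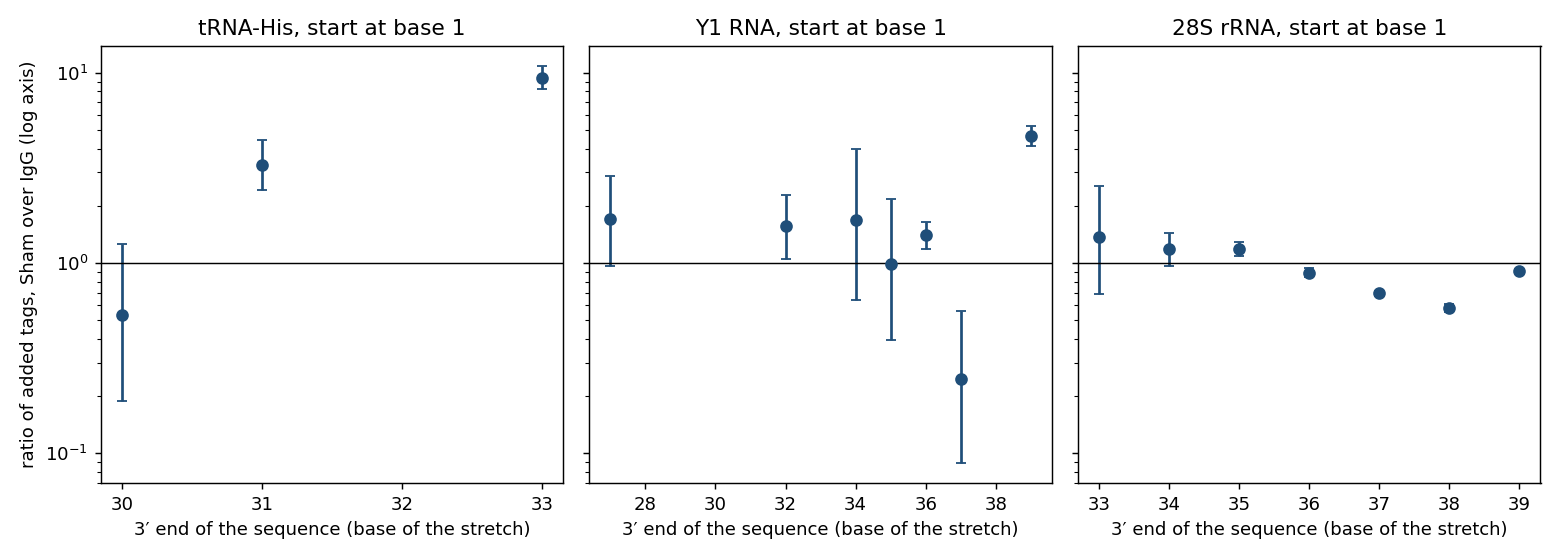
Ratio of added tags, Sham over IgG (y axis, log scale), against the 3′ end of the sequence (x axis, base of the stretch) for sequences that start at base 1 in tRNA-His, Y1 RNA and 28S rRNA. Points are single ratios with 95% counting intervals, shown where at least 20 tags were added and Sham had any. The ratio is highest at the longest form in tRNA-His (9.43) and Y1 (4.65), and stays between 0.58 and 1.37 in 28S.

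In 5S rRNA, the small RNA of the large ribosomal subunit, a single base again separated ratios. The abundant novel_11003_x177 had 3210 and 7225 tags, a ratio of 1.87 (1.79 to 1.95), which was 2.01 with edgeR's TMM factors and 2.16 with DESeq2's size factors and then higher. Without its last base, novel_9531_x202 had 31 and 3, a ratio of 43.4 (13.5 to 222), which rests on 3 IgG tags. The base that is missing is in capitals.
novel_11003_x177: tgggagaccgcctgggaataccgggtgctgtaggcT
novel_9531_x202: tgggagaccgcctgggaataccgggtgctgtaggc
A second 5S family, led by novel_10409_x186 with 50 and 97 tags (a ratio of 2.17, or 1.8999 and not higher without the most abundant family in the totals), held 6 higher sequences among 10 measured, and the highest of them, novel_13746_x146, had 33 and 8 tags, a ratio of 17.3 (7.85 to 43.4). Over all 22 measured 5S sequences 8 were higher and 2 lower. These are 36.4% and 9.09%, beside 12.5% and 28.6% of all measured sequences. Both novel_9531_x202 and novel_13746_x146 had fewer than 10 IgG tags and passed by their Sham count alone, so they could only be higher. The signal recognition particle RNA 7SL had 3 higher of 4 measured, led by novel_13018_x153 with 75 and 128 tags, a ratio of 2.46 (1.83 to 3.30). For 4.5SH RNA, a rodent repeat-derived nuclear RNA, 1 of 19 was higher and 7 lower, or 5.26% and 36.8%.

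Fragments of 28S and 18S rRNA made up most measured sequences, 909 and 673. Of the 28S sequences 82 were higher and 240 lower, and of the 18S sequences 52 and 240. These are 9.02% and 26.4% of the 28S sequences and 7.73% and 35.7% of the 18S ones, beside 12.5% and 28.6% of all measured sequences, of which they are the larger part. The 28S shares lie near those of all sequences, and the median log2 ratios were -0.51 in 28S and -0.97 in 18S. The 5′ end of 28S, novel_88_x12235, the most abundant sequence in both libraries, had 20894 and 107258 tags, a ratio of 0.82 (0.81 to 0.83). In its family of 182 measured sequences 64 were lower and 1 higher. Tags added by extending from base 1 gave ratios of 1.19 at base 35 (1.09 to 1.29), 0.69 at base 37 (0.67 to 0.72), 0.58 at base 38 (0.55 to 0.61) and 0.91 at base 39 (0.89 to 0.93). With 1 base removed from the 5′ end, novel_896_x1768 (bases 2 to 39) had 423 and 3705 tags, a ratio of 0.48 (0.43 to 0.53), which was 0.52 with edgeR's TMM factors and 0.56 with DESeq2's size factors and then no longer lower.

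Individual rRNA positions departed from this. In 18S, novel_7652_x249 had 391 tags in Sham and 4768 in IgG, a ratio of 0.34 (0.31 to 0.38), while novel_4762_x391 had 159 and 82, a ratio of 8.15 (6.20 to 10.8). Another 18S sequence, novel_13901_x144, was blank in Sham and had 213 tags in IgG. In the authors' normalized table its ratio was 0.01. It had 205 tags in tGCI26h and 236 in HPC0h. In 28S, the most abundant higher sequence, novel_231_x5358, had 657 and 1240 tags, a ratio of 2.23 (2.02 to 2.45). With totals that leave out the most abundant family it was 1.95 and no longer higher. The 2 rRNA fragments with the opposite directions in 18S are these, with no part in capitals.
novel_4762_x391: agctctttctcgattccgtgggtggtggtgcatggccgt
novel_13901_x144: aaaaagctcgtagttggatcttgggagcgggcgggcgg
Of 15 measured sequences of mitochondrial 16S rRNA 3 were higher and 2 lower, or 20% and 13.3% beside 12.5% and 28.6% of all measured sequences. Its most abundant member, novel_994_x1625, had 72 and 668 tags, a ratio of 0.45 (0.35 to 0.58), and 0.52 with DESeq2's size factors, where it was no longer lower.

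**Figure D5:**
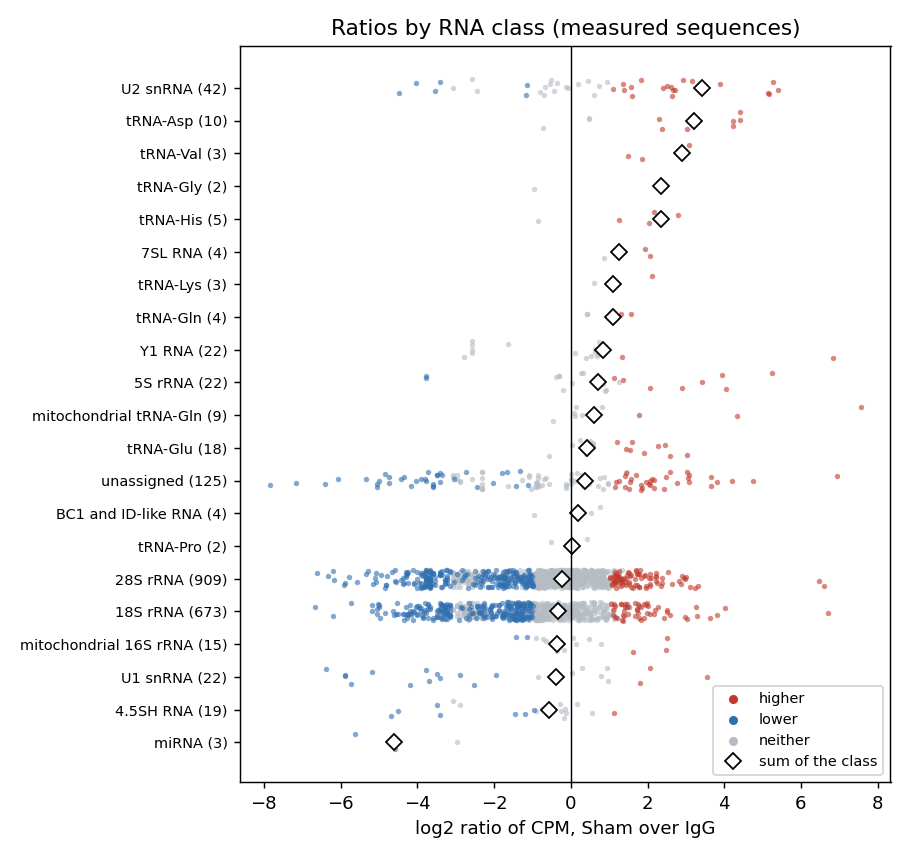
Log2 ratio of CPM, Sham over IgG with 0.5 tags added (x axis), for each measured sequence, by RNA class (y axis, number measured in parentheses; classes with at least 100 tags over both libraries). Red points were higher, blue lower and grey neither, and diamonds mark the ratio of the class sums; U2 spans both directions, no cytosolic tRNA sequence is blue, and the miRNAs lie at the bottom.

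The microRNA let-7b, a widely expressed member of the let-7 family, was the most abundant lower sequence. It had 195 tags in Sham and 19772 in IgG, 24.1-fold lower (20.96 to 27.9). It had 551 tags in tGCI26h and 414 in HPC0h, also below IgG, at 0.084 and 0.017. The other lower miRNA, miR-672 (rno_piR_015914), was blank in Sham with 103 IgG tags. Only 6 listed sequences matched a RefSeq miRNA and 3 were measured, the last being miR-222 (novel_5581_x335), blank in Sham with 16 IgG tags and not called.

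Of the 126 sequences that carry a piRNA name, 21 were measured, and 10 of these were higher and 2 lower, beside 12.5% and 28.6% of all measured sequences. The 2 lower ones were rno_piR_015914, the miR-672 sequence above, and rno_piR_010428, blank in Sham with 67 IgG tags. Both were blank in Sham and passed by their IgG count alone, so they could not be higher. Among the higher ones 7 were fragments of tRNA. The other 3 higher ones, without an RNA name here, had few tags: rno_piR_023471 had 37 and 38, a ratio of 4.09 (2.53 to 6.61), rno_piR_005772 had 13 and 9, and rno_piR_005596 had 10 and 10. With 9 IgG tags, rno_piR_005772 passed by its Sham count alone and could only be higher. Apart from the tRNA-Gly and tRNA-Val fragments above, no measured sequence with a piRNA name exceeded 42 tags in Sham.

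Features often used to describe piRNAs were compared over listed tags. Sequences of 29 to 32 nt held 8203 tags in Sham and 11571 in IgG, a ratio of 2.98, which became 1.44 without rno_piR_005567. Those of 33 nt or longer held 149925 and 635400, a ratio of 0.99. Those of 28 nt or shorter held 1087 and 21886, a ratio of 0.21, which became 1.77 without let-7b. A first base of T is common in primary piRNAs, and sequences that begin with it had a ratio of 1.22, or 1.14 without tRNA-Glu, and those beginning with G had 1.21. Without tRNA-Glu, the T sequences held 25957 tags in Sham and 95744 in IgG. Of these, 5131 and 557 were counts of the U2 fragment novel_5060_x368, and 2328 and 270 of novel_4823_x387, which lies inside it. With A at position 10, the base typical of secondary piRNAs, the ratio was 0.77.

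The 180 families without an RNA name held 125 measured sequences, of which 34 were higher and 36 lower, or 27.2% and 28.8% beside 12.5% and 28.6% of all measured sequences. Their sequences are not printed, since their organism of origin was not checked. The family of novel_19185_x109 had no listed tag in Sham, and all 7 of its measured members were lower. Without a Sham tag they passed by their IgG count alone and could not be higher. From 18 IgG tags on, such a sequence is lower by rule. The members overlap, so they are not independent. Its lead sequence was blank in Sham, tGCI26h and HPC0h and had 483 tags in IgG. Its Sham to IgG ratio in the authors' normalized table was 0.011. Of the higher ones, novel_7583_x251 had the most Sham tags, with 182 tags in Sham and 54 in IgG, a ratio of 14.2 (10.4 to 19.6), and 778 tags in tGCI26h.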

How the data were processed

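Small RNA tags of 4 RIP libraries were taken from 2 deposited tables. Per the file headers, the first holds the authors' raw tag counts per sequence, the unit of every comparison here. Per the file headers, the second holds normalized tag counts. The authors' values there are whole numbers, so they were treated as a score, and no source used here states their scaling. Novoalign 3.02.12 and cutadapt 1.9.3 are listed, per the submitters' processing notes, with no role; neither the genome build nor the rule that assigns tags to sequences was found there. Columns were matched to libraries by name; apart from IgG, these names match the titles only in part. Emptied lines numbered 40 and 46.

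Sequences sharing any 20 bases were joined into 307 families; a family took the RNA name given to 1 of its members. The mature miRNAs come from RefSeq (GRCr8). Of the 18S sequences, 194 lie in RefSeq windows of Rn45sl1 and Rn45sl2 on the opposite strand, and 56 in windows of LOC134486046 and LOC134486048 on the same strand. No rRNA, tRNA or snRNA reference was used here, and no genome. Members and lists were chosen with earlier results of these data known. Named sequences were the 10 highest and 10 lowest by the interval bound nearest to 1, the 10 most abundant in each library, the most abundant (and most abundant higher and lower) of each RNA class, measured rno_piR names, the 5 most abundant blanks on each side and the extremes of the largest families; not all are described. Other sequences are named as neighbours of these, chosen after their values were seen.

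With 1 library per side no test was made and no p-value is given. Ratios were computed with Python 3.11.15 and scipy 1.17.1, and alternative scalings with edgeR 4.0.16 and DESeq2 1.42.0, used for factors only.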

Additional observations from a re-analysis of the deposited data

Results flagged for a closer look

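A further 762 sequences appear in the authors' normalized table alone and enter no comparison above. Of these, 18 had a normalized Sham value of at least 10 that was at least 2 times that of IgG, 3 of them with no IgG value, and 12 had the opposite. The highest such Sham value was 19. The values have no counts behind them, so no interval is given.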

How the results depend on the processing

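Intervals cover counting error in 1 library per side, so the spread between animals is unknown, and Sham, with 159215 tags, limits what can be called lower. No paired analysis was possible because each group holds 1 library. By scaling, the 239 higher and 548 lower became 268 and 498 with edgeR's TMM factors, 301 and 459 with DESeq2's size factors, and 206 and 658 without the most abundant family. The counts of 239 higher and 548 lower sequences moved as follows; the causes were not tested beyond what each setting does by construction. At least 50 tags in either library left 101 higher and 325 lower of 1011 measured, against 239 and 548 of 1919. Requiring a value in both columns left 233 higher and 309 lower of 1527. A ratio of 4 left 107 higher and 366 lower of 1919. Summing families gave 48 higher and 35 lower of 190, so that there more were higher than lower. Sequences inside no other, a set chosen after seeing the data, gave 148 higher and 234 lower of 827 measured.

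The median log2 ratio of -0.62 was -0.52 with edgeR's TMM factors, -0.41 with DESeq2's size factors, -0.81 with totals that leave out the most abundant family, -0.48 at 50 tags, -0.20 with a value in both columns, -0.26 over sequences inside no other and -0.37 in the authors' normalized table, the last 2 added after seeing the data. It turned to 0.071 with 5 tags added in place of 0.5. These scalings multiply every ratio by 1.08, 1.16 and 0.88. The number of RNA classes whose summed ratio was at least 2, 8 of 20, ranged from 6 to 9 over the settings tried. Of the 62 named sequences that were called, 1 lost its call with TMM factors, 3 with DESeq2's size factors and 4 without the most abundant family; 1 more was called under each. With totals over sequences inside no other, added after seeing the data, none lost it. None of the 100 class ratios or 248 ratios of single named sequences recomputed in this way changed direction where a direction had been called. For class ratios, a called direction rested on a counting interval of the class sum. Such intervals are not given here, because the sums hold many tags repeatedly. For named sequences under the scalings, an unchanged direction was fixed beforehand. A called ratio lies too far from 1 for a factor of 1.08, 1.16 or 0.88 to carry it across. The remaining setting for named sequences was the authors' normalized table, which scores the same libraries and is no independent check. Taking blanks as 1 tag, added after seeing the data, gave 239 higher and 474 lower.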
